A study of Mus musculus with 8 samples.

Results

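Tnfrsf9, Icos, Cd27, Cd28, Cd226, Cd40lg, Tnfsf8 and Tnfsf11 encode 5 costimulatory receptors and 3 ligands of the tumor necrosis factor (TNF) family. The 8 genes were taken by symbol from the 32285 genes counted in 4 gene expression libraries of mouse bone marrow T cells, and all 8 passed the filter on low counts in every comparison. A T cell that meets antigen through its receptor also reads costimulatory receptors, which belong to the immunoglobulin family (Cd28, Icos, Cd226) or to the TNF receptor family (Tnfrsf9, also named 4-1BB, and Cd27). Cd28, Cd27 and Cd226 are carried by many resting T cells, while Tnfrsf9 and Icos are known as receptors induced by activation. The ligands act on partner cells: Cd40lg binds CD40 on B cells and dendritic cells, Tnfsf8 (CD30 ligand) binds CD30, and Tnfsf11 (RANKL) binds RANK and drives osteoclast formation in bone.

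The T cells came from C57BL/6 mice with a conditional knock-in of the leukemia fusion gene Runx1::Runx1t1. The Runx1::Runx1t1 group was Runx1Runx1t1/+; Mx1-Cre, where the interferon-inducible Mx1 promoter drives Cre in blood-forming and other cells, and the control group was labelled wild type and described in the study's methods as Runx1Runx1t1/+ littermates without Mx1-Cre. Per those methods the mice received Poly(I:C) at 5 mg/kg in 4 injections, with no separate statement for the control group, were taken 4 weeks later, and gave 2 pools of 2 mice in each group, so every group comparison rests on n = 2 pools against 2 and its p-values measure only the spread among these pools. DAPI- mCherry- CD3+ cells were sorted, so the T cells studied were those without the fusion gene's mCherry reporter, and gene expression and T cell receptor (TCR) libraries were made from the same cells.

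The libraries held 13633 to 14664 barcodes and 90958101 to 102883449 unique molecular identifiers (UMIs), and 53033 cells were kept. Among the 51589 distinct barcodes kept, 1425 occurred in more than 1 library. T cells were put in 4 classes by their own UMIs: 26462 with Cd8a or Cd8b1 (Cd8 T cells), 5774 with Cd4 and no Foxp3 (Cd4 T cells), 1496 with Cd4 and Foxp3 (Foxp3 T cells), and 12959 with a Cd3 UMI and none of Cd4, Cd8a or Cd8b1 (co-receptor-negative T cells). The helper list (Cd4 and Zbtb7b) summed to 421 to 487 CPM (counts of a gene or list scaled by the sum of all UMIs of the cells) in Cd4 T cells and to 2.16 to 3.97 in Cd8 T cells, and the regulatory T cell list to 1042 to 1348 in Foxp3 T cells against 68.9 to 177 in Cd4 T cells. Co-receptor-negative T cells had paired TCR chains in 52.6% of cells, against 76.7 to 80.7% in the other classes. Their summed natural killer markers lay at 507 and 398 CPM in the Runx1::Runx1t1 pools and at 792 and 754 in the control pools, their gamma-delta markers at 134 to 167 (Trgc1 and Trgc2 were not among the symbols of the files), and their myeloid markers at 68.8, 144, 1949 and 583, so the class is named by its rule and not as a lineage. A helper T cell with no captured Cd4 UMI would fall into this class. Zbtb7b of the helper list had a UMI in 7.85% of co-receptor-negative, 2.13% of Cd8 and 17.0% of Cd4 T cells.

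Among the classes of T cells, the level of Tnfrsf9 in CPM was highest in Foxp3 T cells. Cd8 T cells, the larger class, held more Tnfrsf9 UMIs, 7388 against 2751 in Foxp3 T cells. Of the 7388, 5488 lay in Runx1::Runx1t1 replicate 2. The level of Tnfrsf9 in Foxp3 T cells was 385 and 370 in the Runx1::Runx1t1 pools and 235 and 152 in the control pools. Cd4 T cells held 30.3, 52.2, 39.1 and 29.9 in the same order of pools, and co-receptor-negative T cells 25.7, 27.7, 24.7 and 20.4. Cd8 T cells held 18.1 and 95.8 in the Runx1::Runx1t1 pools and 8.85 and 10.8 in the control pools, so that Runx1::Runx1t1 replicate 2 stood apart from the other 3. No pool of Foxp3 T cells overlapped any pool of another class. Tested by edgeR's quasi-likelihood fit, in which the pool was a block, Tnfrsf9 was 7.51-fold higher in Foxp3 than in Cd4 T cells (log2 fold change 2.91, SE 0.45, adjusted p = 0.000337) and 9.27-fold higher than in Cd8 T cells (adjusted p = 2.13e-05). Cd4, Cd8 and co-receptor-negative T cells were neighbours that did not differ beyond their spread, with a log2 difference of 0.30 for Cd4 over Cd8 (SE 0.43, adjusted p = 0.629). That last comparison rested on Runx1::Runx1t1 replicate 2, without which Tnfrsf9 was higher in Cd4 T cells (1.06, adjusted p = 0.00399) and in co-receptor-negative T cells (0.76, adjusted p = 0.0157) than in Cd8 T cells. With 1 cell counted per clonotype, which also left out all cells without paired TCR chains, these differences were 1.26 (adjusted p = 8.64e-06) and 1.11 (adjusted p = 1.69e-05). At least 1 Tnfrsf9 UMI was seen in 47.2% of Foxp3 T cells, 10.8% of Cd8, 10.1% of Cd4 and 8.86% of co-receptor-negative T cells, at medians of 4870, 7050.5, 5174 and 5786 UMIs per cell, against 0.281% of the 712 myeloid and erythroid cells at a median of 13217.5.

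Cd27, which binds CD70, differed little between classes. It lay at 214, 223, 229 and 186 CPM in Foxp3 T cells, at 117, 165, 134 and 136 in Cd8 T cells, at 131, 170, 162 and 135 in Cd4 T cells and at 115, 137, 144 and 138 in co-receptor-negative T cells. The pools of the last 3 classes overlapped one another, while every pool of Foxp3 T cells stood above them. The increase in Foxp3 T cells was 1.37-fold over Cd4 T cells (log2 fold change 0.46, SE 0.08, adjusted p = 0.00124 by edgeR), and was not called after cells were thinned to 2000 UMIs (0.34, adjusted p = 0.100). Over Cd8 T cells it was 0.31 on the log2 scale (adjusted p = 0.00591), and without Runx1::Runx1t1 replicate 1 it was 0.21 and was no longer called (adjusted p = 0.0896). Myeloid and erythroid cells, of which 49.4% had a Cd27 UMI (58.0, 66.3, 9.47 and 66.1% in the pools), could not serve as a background for this gene.

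Promoter sequence was held in RefSeq (GRCm38.p6) for 4 of the 8 genes, and is shown for the pair of TNF receptors because they rose together with Pdcd1 in Cd8 and in Cd4 T cells, as described further on. Each run gives the 250 bases upstream of the start site in the direction of transcription, and capitals mark the NFAT core GGAAAA (or TTTTCC on the other strand) and the AP-1 site TGANTCA, neither of which overlaps the other.
Tnfrsf9, chr4:150919905-150920154 (+): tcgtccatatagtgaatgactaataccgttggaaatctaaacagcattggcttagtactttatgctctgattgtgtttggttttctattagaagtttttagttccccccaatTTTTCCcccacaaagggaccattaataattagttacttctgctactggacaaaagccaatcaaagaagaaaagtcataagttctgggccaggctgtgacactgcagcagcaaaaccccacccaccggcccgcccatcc
Tnfrsf9, chr4:150927749-150927998 (+): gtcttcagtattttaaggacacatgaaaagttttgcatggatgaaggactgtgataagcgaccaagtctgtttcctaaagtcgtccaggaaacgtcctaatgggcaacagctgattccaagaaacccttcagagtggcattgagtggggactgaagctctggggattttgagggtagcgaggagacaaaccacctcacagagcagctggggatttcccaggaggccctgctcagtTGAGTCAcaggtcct
Cd27, chr6:125237028-125237277 (-): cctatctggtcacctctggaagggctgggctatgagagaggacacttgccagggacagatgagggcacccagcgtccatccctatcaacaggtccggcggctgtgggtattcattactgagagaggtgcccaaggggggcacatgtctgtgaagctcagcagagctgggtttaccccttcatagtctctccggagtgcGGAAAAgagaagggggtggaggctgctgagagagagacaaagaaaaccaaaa
Counted back from the start site to the first base of the match, the NFAT core stood at -138 in the upstream Tnfrsf9 promoter and at -52 in that of Cd27, and TGANTCA at -15 in the downstream Tnfrsf9 promoter. GGAAAA or TTTTCC occurred in 20.4% and TGANTCA in 6.75% of 32851 promoter windows of the same length. Neither set of letters occurred in the same window of Tnfsf8 or Tnfsf11, and Icos, Cd28, Cd226 and Cd40lg had no entry.

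Icos, the receptor for ICOS ligand on antigen-presenting cells, followed the order Foxp3, Cd4, then co-receptor-negative and Cd8 T cells. Foxp3 T cells held 279, 338, 260 and 298 CPM and Cd4 T cells 163, 138, 138 and 105. Co-receptor-negative T cells held 99.5 and 109 in the Runx1::Runx1t1 pools and 42.2 and 34.3 in the control pools, and Cd8 T cells 41.2, 46.1, 29.0 and 24.3. The Foxp3 pools were separate from all others, whereas co-receptor-negative T cells of Runx1::Runx1t1 replicate 2 (109) lay above the lowest Cd4 pool (105). Icos was 2.06-fold higher in Foxp3 than in Cd4 T cells (log2 fold change 1.05, SE 0.20, adjusted p = 0.00139 by edgeR), 3.29-fold higher in Cd4 than in Cd8 T cells (1.72, SE 0.19, adjusted p = 6.69e-06) and 1.67-fold higher in co-receptor-negative than in Cd8 T cells (0.74, SE 0.18, adjusted p = 0.00777). The last of these was not called without Runx1::Runx1t1 replicate 1 (0.62, adjusted p = 0.0737). A UMI of Icos was present in 62.2% of Foxp3, 41.2% of Cd4, 20.2% of Cd8 and 20.1% of co-receptor-negative T cells, and in 3.09% of myeloid and erythroid cells.

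Cd28, the receptor for CD80 and CD86, lies next to Ctla4 and Icos on chromosome 1 (GRCm38; Cd28 1:60716800-60773359, Icos 1:60977927-61000320, both on the + strand with Ctla4 between them). It was highest in Cd4 T cells, with 414, 463, 456 and 409 CPM, followed by Foxp3 T cells with 364, 376, 416 and 346. Cd8 T cells held 244, 276, 232 and 205 and co-receptor-negative T cells 306, 347, 264 and 211, and the pools of these last classes overlapped, as did the Cd4 and Foxp3 pools. Cd28 was 1.52-fold higher in Cd4 than in Cd8 T cells (adjusted p = 8.68e-06 by edgeR) and 1.22-fold lower in Foxp3 than in Cd4 T cells (log2 fold change -0.28, SE 0.07, adjusted p = 0.0101), a small difference that was not called without Runx1::Runx1t1 replicate 1 (-0.30, adjusted p = 0.0504) nor when library totals replaced TMM factors (-0.22, adjusted p = 0.093). Between co-receptor-negative and Cd8 T cells it was 0.04 (adjusted p = 0.69), and 0.23 with library totals (adjusted p = 0.044). Cd28 UMIs were found in 65.4 to 82.0% of the cells of the 4 classes and in 5.34% of myeloid and erythroid cells.

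Cd226 (DNAM-1), a receptor for CD155 that T cells share with natural killer cells, ran the other way. Foxp3 T cells held the least, 24.3, 27.9, 37.7 and 46.1 CPM, and co-receptor-negative T cells the most, 98.6, 85.2, 95.4 and 94.0. Cd8 T cells lay between at 66.2, 59.3, 71.6 and 75.6, and Cd4 T cells at 65.9, 50.9, 69.6 and 87.1 spread across the range of the Cd8 pools and into that of the co-receptor-negative pools. Foxp3 T cells had 2.17-fold less Cd226 than Cd4 T cells (log2 fold change -1.12, SE 0.12, adjusted p = 1.04e-05 by edgeR) and 2.64-fold less than Cd8 T cells (-1.40, SE 0.11, adjusted p = 1.36e-07). Co-receptor-negative T cells had 1.47-fold more than Cd4 T cells (adjusted p = 0.000284) and 1.21-fold more than Cd8 T cells (0.27, adjusted p = 0.0193), and their summed natural killer markers were also above those of Cd8 T cells, at 398 to 792 against 87.7 to 237 CPM, whose part in this result was not tested. The latter call was lost without Runx1::Runx1t1 replicate 1 (adjusted p = 0.0813), Runx1::Runx1t1 replicate 2 (0.0542) or control replicate 1 (0.069). The difference of -0.28 between Cd4 and Cd8 T cells (adjusted p = 0.0172) was not called without Runx1::Runx1t1 replicate 2 (-0.25, adjusted p = 0.0545) or control replicate 1 (-0.25, adjusted p = 0.106), nor with library totals in place of TMM factors (-0.02, adjusted p = 0.90).

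The levels of the 3 ligands were highest in Cd4 T cells. Cd40lg lay at 144, 120, 174 and 176 CPM in Cd4 T cells and at 4.13, 2.36, 3.31 and 4.91 in Cd8 T cells. Co-receptor-negative T cells held 55.5, 57.5, 31.6 and 38.7, and Foxp3 T cells 19.5, 20.1, 28.2 and 36.4. Cd4 T cells were separate from all other pools, and Cd8 T cells were the lowest in every pool. The difference between Cd4 and Cd8 T cells was 34.8-fold (log2 fold change 5.12, SE 0.22, adjusted p = 1.73e-09 by edgeR). Foxp3 T cells had 6.57-fold less Cd40lg than Cd4 T cells (-2.72, SE 0.26, adjusted p = 5.07e-06), and co-receptor-negative T cells 10.9-fold more than Cd8 T cells (3.45, SE 0.22, adjusted p = 1.65e-07). The part of helper T cells without a captured Cd4 UMI in the latter was not tested. The 2.06-fold excess of co-receptor-negative over Foxp3 T cells (adjusted p = 0.00725) was not called without Runx1::Runx1t1 replicate 1 (0.81, adjusted p = 0.0901). A Cd40lg UMI was present in 40.8% of Cd4 T cells, 13.7% of co-receptor-negative, 9.02% of Foxp3 and 1.81% of Cd8 T cells, and in 0.140% of myeloid and erythroid cells.

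Tnfsf11 was also highest in Cd4 T cells, with 60.6, 51.9, 56.3 and 48.1 CPM. Foxp3 T cells followed at 26.9, 32.7, 32.5 and 34.8, then co-receptor-negative T cells at 13.1, 18.4, 7.67 and 8.46, and Cd8 T cells at 1.99, 1.97, 1.72 and 1.92. No pool of any of these classes overlapped a pool of another. Tnfsf11 was 23.7-fold higher in Cd4 than in Cd8 T cells (log2 fold change 4.57, SE 0.18, adjusted p = 6.3e-10 by edgeR) and 5.20-fold higher in co-receptor-negative than in Cd8 T cells (2.38, SE 0.18, adjusted p = 5.84e-07), where the part of helper T cells without a captured Cd4 UMI was not tested either. It was 1.86-fold lower in Foxp3 than in Cd4 T cells (-0.89, adjusted p = 0.00305), and not called there without Runx1::Runx1t1 replicate 1 (-0.75, adjusted p = 0.066).

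Tnfsf8 was also found in Cd8 T cells, where the pools gave 31.1, 31.4, 29.7 and 32.5 CPM. Cd4 T cells held 150, 122, 219 and 137, Foxp3 T cells 77.4, 68.4, 24.8 and 46.1, and co-receptor-negative T cells 39.9, 52.5, 34.0 and 34.1. The Cd4 pools were above all others, and the Foxp3 pools spread over 24.8 to 77.4. Tnfsf8 was 4.14-fold higher in Cd4 than in Cd8 T cells (log2 fold change 2.05, SE 0.20, adjusted p = 2.39e-06 by edgeR) and 2.76-fold lower in Foxp3 than in Cd4 T cells (-1.46, SE 0.24, adjusted p = 0.000484). Foxp3 and Cd8 T cells were neighbours whose difference was 0.58 (adjusted p = 0.0623), called without control replicate 1 (0.75, adjusted p = 0.0035) or with library totals (0.89, adjusted p = 0.0072).

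**Figure D1:**
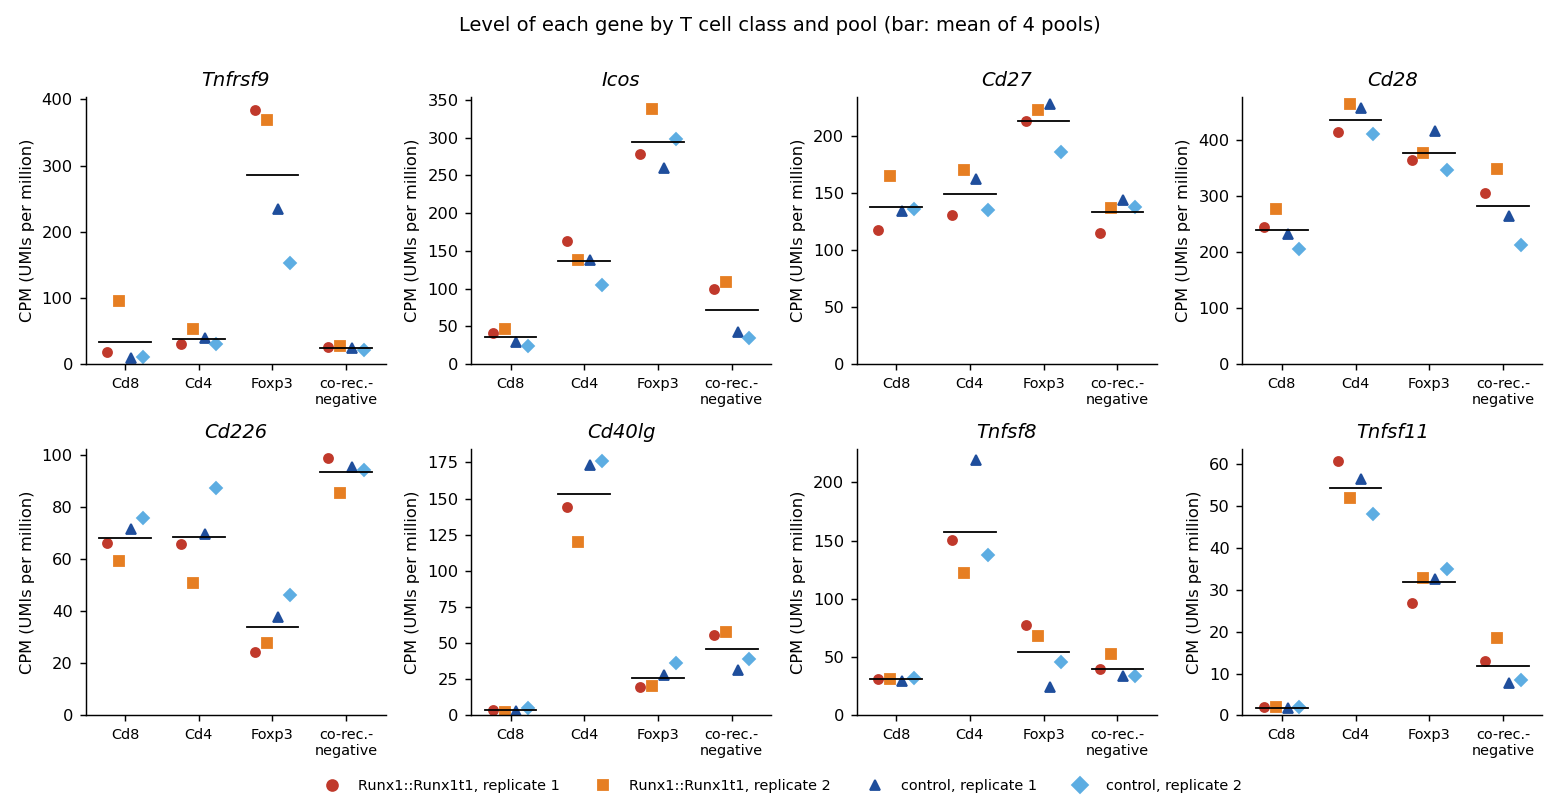
Level of each of the 8 genes in CPM in the 4 classes of T cells, with 1 point per pool, red and orange for the Runx1::Runx1t1 pools, blue for the control pools, and a bar for the mean of the 4 pools. Tnfrsf9 is highest in Foxp3 T cells (152 to 385), Cd40lg and Tnfsf11 are highest in Cd4 T cells and lowest in Cd8 T cells, and Cd226 is lowest in Foxp3 T cells.

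Counted over the 8 genes, 5 were higher and 1 lower in Cd4 than in Cd8 T cells, where 36% of the 12544 genes tested were called (18.6% higher and 17.4% lower). Foxp3 T cells had 3 higher and 5 lower than Cd4 T cells, against 22.9% of all genes called (11.3% higher and 11.6% lower), and 6 higher and 1 lower than Cd8 T cells, against 46.7% (23.1% higher and 23.5% lower). Co-receptor-negative T cells had 4 higher and 1 lower than Cd8 T cells (27.3% of all genes called, 15.4% higher and 11.9% lower), 1 higher and 5 lower than Cd4 T cells (25.8%, 13.9% higher and 11.9% lower), and 2 higher and 5 lower than Foxp3 T cells (39.3%, 20.2% higher and 19.2% lower). Folds were scaled by TMM. Library totals alone moved the median of all genes by 0.258 on the log2 scale for Cd4 over Cd8 T cells, by 0.319 for Foxp3 over Cd8 T cells and by 0.179 for co-receptor-negative over Cd8 T cells, and the share of calls that were higher then went from 51.7 to 86.5%, from 49.5 to 80.6% and from 56.3 to 89.1%. For Foxp3 over Cd4 T cells that share went from 49.4 to 62.4%, and for co-receptor-negative over Cd4 and over Foxp3 T cells from 53.9 to 36.7% and from 51.3 to 33.0%. The call of Cd27 as lower in co-receptor-negative than in Cd8 T cells (-0.22, adjusted p = 0.0479 by edgeR) was not made with library totals (-0.04, adjusted p = 0.69), nor without Runx1::Runx1t1 replicate 1 (adjusted p = 0.105), Runx1::Runx1t1 replicate 2 (0.182) or control replicate 1 (0.0751).

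The wider families were counted in the same way. Of 10 other TNF receptors, 4 were higher and 0 lower in Cd4 than in Cd8 T cells, among them Tnfrsf4 (OX40, log2 fold change 5.10) and Tnfrsf25 (2.11), and 6 were higher and 1 lower in Foxp3 than in Cd4 T cells, among them Tnfrsf4 (2.16), Tnfrsf18 (GITR, 1.63) and Tnfrsf1b (1.24), with Tnfrsf1a lower (-0.96). Of 12 other TNF ligands tested, 6 were higher in Cd4 than in Cd8 T cells, led by Cd70 (5.02), and 1 was higher and 4 lower in Foxp3 than in Cd4 T cells, with Fasl at -2.94 and Tnfsf14 at -1.85. Of 10 other costimulatory genes of the immunoglobulin and SLAM families, 6 were higher and 2 lower in Cd4 than in Cd8 T cells, with Cd5 at 1.23 and Crtam at -2.55. Of 5 inhibitory counterparts, 3 were higher in Cd4 than in Cd8 T cells (Ctla4 2.03, Tigit 1.27, Btla 0.66), and 1 was higher and 2 were lower in Foxp3 than in Cd4 T cells (Ctla4 1.66, Btla -0.55, Cd96 -0.48). Of 11 adaptors and kinases that act downstream of these receptors, 4 were higher and 3 lower in Foxp3 than in Cd4 T cells, with Traf1 at 0.89, Nfkb2 at 0.82 and Relb at 0.57. Of the partner-cell list of 8 ligands and receptors 4 were tested, and Cd80 (2.85) and Cd86 (0.77) were higher in Foxp3 than in Cd4 T cells.

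Pdcd1 encodes PD-1, an inhibitory receptor of T cells that have met antigen, and each class was split into cells with and without a Pdcd1 UMI within each pool. In Cd8 T cells 8.81 and 30.4% of cells in the Runx1::Runx1t1 pools and 1.84 and 1.68% in the control pools had such a UMI. Tnfrsf9 had the largest fold of the 8 genes. Cd8 T cells with Pdcd1 held 134, 299, 72.3 and 55.6 Tnfrsf9 CPM, and those without held 9.19, 24.1, 7.50 and 10.1, so the sums did not overlap and every pool moved the same way. The fold was 9.63 (log2 fold change 3.27, SE 0.30, adjusted p = 1.39e-09 by edgeR), and it was called under all 14 alternatives, over a range of 2.82 to 3.54. Icos rose 1.45-fold (adjusted p = 0.0456), from 38.7, 41.3, 28.3 and 23.9 to 73.6, 59.4, 59.0 and 45.3, and Cd27 1.28-fold (adjusted p = 0.0399), from 111, 141, 134 and 135 to 203, 232, 160 and 188. Both were close to the threshold. Icos was not called without Runx1::Runx1t1 replicate 1 (0.48, adjusted p = 0.208), control replicate 1 (0.48, adjusted p = 0.0839) or control replicate 2 (0.49, adjusted p = 0.0866), and Cd27 was not called without Runx1::Runx1t1 replicate 1 (0.25, adjusted p = 0.257) or replicate 2 (0.32, adjusted p = 0.174).

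Cd226 fell 1.34-fold with Pdcd1 in Cd8 T cells (log2 fold change -0.42, SE 0.13, adjusted p = 0.0137 by edgeR). Its levels with and without Pdcd1 were 59.8 and 66.7 CPM in Runx1::Runx1t1 replicate 1, 45.4 and 64.2 in replicate 2, 72.3 and 71.6 in control replicate 1, and 90.5 and 75.3 in control replicate 2. Only the Runx1::Runx1t1 pools were lower on this scale. The call was lost without Runx1::Runx1t1 replicate 1 (-0.41, adjusted p = 0.0886) or replicate 2 (-0.24, adjusted p = 0.281), and with library totals in place of TMM factors (-0.15, adjusted p = 0.37), which moved the median of all genes by 0.270 and the share of higher calls from 49.6 to 82.3%. Cd28 (-0.21), Tnfsf8 (-0.68, SE 0.34), Cd40lg (0.13) and Tnfsf11 (0.64) were not called. DESeq2 called Tnfsf11 (1.19, adjusted p = 0.0099), as did edgeR without Runx1::Runx1t1 replicate 2 (1.59, adjusted p = 0.0216). Tnfsf8 was called without a filter on low counts (-0.71, adjusted p = 0.0457), with 1 cell per clonotype (-0.85, adjusted p = 0.0385) and without control replicate 1 (-0.75, adjusted p = 0.0383), and Cd28 without control replicate 2 (-0.28, adjusted p = 0.0482). In all 4 of 8 genes were called, 3 higher and 1 lower, where 38.4% of 10954 genes were called (19% higher and 19.4% lower). Cells with Pdcd1 also had fewer UMIs (median 6048 against 7211), and all 5 genes of the naive T cell list were lower in them, with Ccr7 at -2.66. After every cell had been thinned to 2000 UMIs, Icos was not called (0.36, adjusted p = 0.286) and Cd28 was called as lower (-0.49, adjusted p = 0.000738), while Tnfrsf9 was called as before. The part of the naive genes in these differences was not tested.

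In Cd4 T cells 3 of the 8 genes were called with Pdcd1, where 16.7% of all genes were (8.25% higher and 8.48% lower). Tnfrsf9 rose 3.04-fold (log2 fold change 1.6, SE 0.35, adjusted p = 0.00178 by edgeR), from 24.3, 30.5, 22.0 and 20.9 CPM to 48.6, 99.4, 107 and 94.2, and after every cell had been thinned to 2000 UMIs it was not called (1.35, adjusted p = 0.134). Cd27 rose 1.56-fold (adjusted p = 0.00205), from 101, 142, 149 and 130 to 221, 232, 216 and 172, though not past the threshold without Runx1::Runx1t1 replicate 1 (0.49, adjusted p = 0.0633) or with 1 cell per clonotype (0.25, adjusted p = 0.247). Cd226 fell 2.24-fold (-1.17, SE 0.16, adjusted p = 1.35e-05), from 78.3, 63.0, 75.7 and 88.7 to 28.0, 24.6, 45.3 and 75.7. The drop in Cd226 was called under all 13 alternatives, with log2 ratios of -1.49 and -1.36 in the Runx1::Runx1t1 pools and of -0.74 and -0.23 in the control pools, a contrast between groups that was not tested. The ligands did not pass the test. Tnfsf8 stood at 474 and 294 with Pdcd1 against 155 and 116 without in the control pools, and at 159 and 103 against 147 and 130 in the Runx1::Runx1t1 pools, so that its log2 fold change of 0.67 (SE 0.28, adjusted p = 0.11) averaged pools that differed. Without Runx1::Runx1t1 replicate 2 it was 0.98 (adjusted p = 0.0199). Cd40lg was at -0.56 (adjusted p = 0.122), and at -0.80 without control replicate 1 (adjusted p = 0.0473). The naive list had 4 of 5 genes lower in Cd4 T cells with Pdcd1, the part of which was not tested.

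The Pdcd1 difference itself was compared between Cd4 and Cd8 T cells. It was smaller for Tnfrsf9 in Cd4 T cells by 1.66 on the log2 scale (log2 difference -1.66, SE 0.45, adjusted p = 0.0252 by edgeR) and more negative for Cd226 (-0.74, SE 0.21, adjusted p = 0.0347). These 2 of 8 genes were called where 5.74% of all genes were (2.67% higher and 3.08% lower). Both calls depended on single pools: Tnfrsf9 was not called without Runx1::Runx1t1 replicate 1 (-1.26, adjusted p = 0.262) or replicate 2 (-1.5, adjusted p = 0.177), and Cd226 without Runx1::Runx1t1 replicate 1 (-0.56, adjusted p = 0.357), replicate 2 (-0.80, adjusted p = 0.121) or control replicate 1 (-0.78, adjusted p = 0.0733). Library totals changed the share of higher calls in this comparison from 46.4 to 11%.

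In co-receptor-negative T cells the genes that rose with Pdcd1 were Tnfsf11 and Icos, 2 of 8 where 9.57% of all genes were called (5.5% higher and 4.07% lower). Tnfsf11 was 40.4, 30.2, 36.7 and 40.3 CPM with Pdcd1, on 36, 22, 27 and 33 UMIs, against 11.2, 17.3, 6.86 and 7.44 without. The sums did not overlap, and the rise was 3.37-fold (log2 fold change 1.75, SE 0.35, adjusted p = 0.00112 by edgeR), called under all 14 alternatives. Icos went from 96.3, 101, 40.9 and 32.4 to 147, 199, 85.7 and 92.9 (1.87-fold, adjusted p = 0.00678), and was not called without control replicate 2 (0.76, adjusted p = 0.0807) or in cells with paired chains only (0.85, adjusted p = 0.0771). Tnfrsf9 was at 1.19 (SE 0.40, adjusted p = 0.0561), and past the threshold with DESeq2 (1.25, adjusted p = 0.0148) and with library totals (1.33, adjusted p = 0.023), a scaling that took the share of higher calls from 57.4 to 82.8%. Of the myeloid list, 4 of 8 genes were lower in co-receptor-negative T cells with Pdcd1, and their part was not tested.

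In Foxp3 T cells, where 40 to 109 cells per pool had a Pdcd1 UMI, none of the 8 genes was called by edgeR and 0.155% of all genes were (0.0822% higher and 0.073% lower). At an unadjusted p under 0.05 there were 2 of the 8 and 1051 of all genes, and DESeq2 called 0 of the 8. Tnfrsf9 was nonetheless 640, 599, 456 and 229 with Pdcd1 against 321, 302, 153 and 136 without, higher in all 4 pools (log2 fold change 1.01, SE 0.30, adjusted p = 0.186), and it was called with 1 cell per clonotype (1.21, adjusted p = 0.00595). Whether the Tnfrsf9 difference of Foxp3 T cells was smaller than that of Cd8 or Cd4 T cells was not tested.

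**Figure D2:**
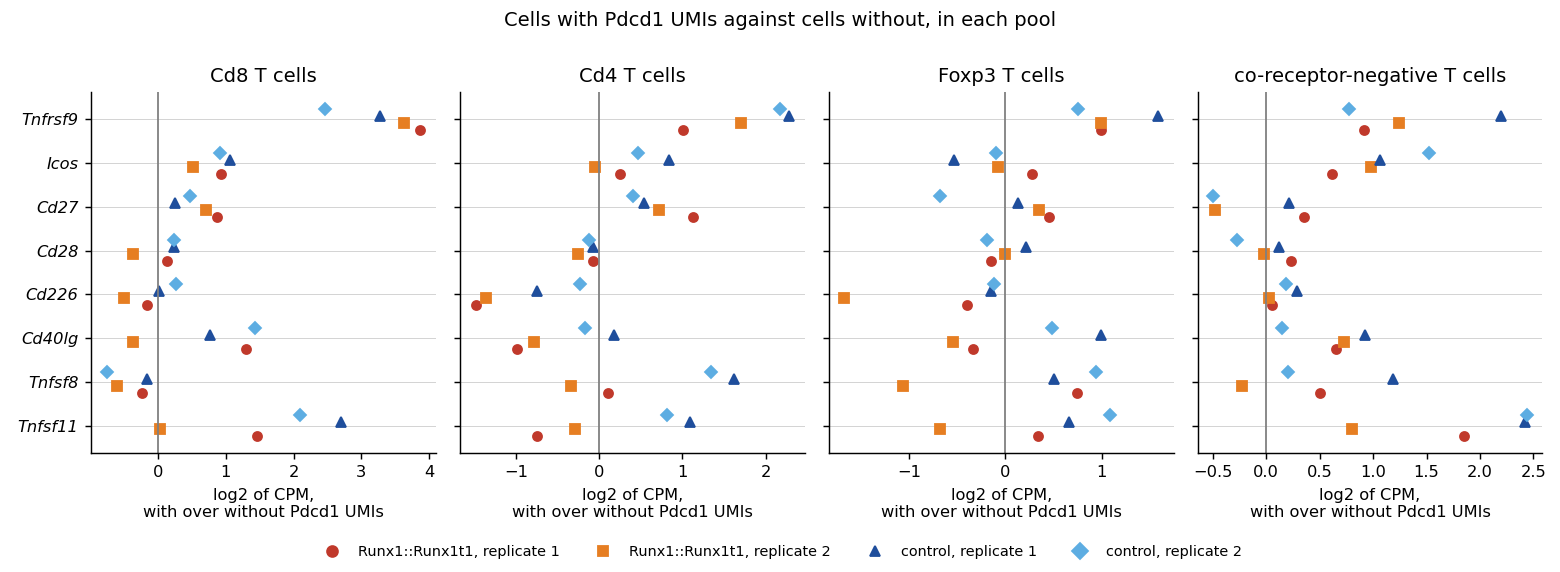
Log2 ratio of each gene's level in cells with over cells without a Pdcd1 UMI, 1 point per pool, in the 4 classes of T cells. Tnfrsf9 is above 0 in every pool and class, with ratios of 2.46 to 3.86 in Cd8 T cells and of 1.0 to 2.28 in Cd4 T cells, and Cd226 in Cd4 T cells is below 0 in all 4 pools.

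Among the wider families, 5 of 9 other TNF receptors tested were higher and 3 lower in Cd8 T cells with Pdcd1, including Tnfrsf4 (log2 fold change 2.39), Tnfrsf1b (1.06) and Fas (-0.88), and in Cd4 T cells 3 were higher and 1 lower, with Tnfrsf4 at 1.36 and Tnfrsf18 at 0.73. Of 10 other TNF ligands, 4 were higher and 3 lower in Cd8 T cells (Tnfsf13b 3.43, Fasl 1.09, Lta -1.61) and 3 higher in Cd4 T cells (Cd70 1.48, Tnfsf13b 1.15, Tnfsf10 0.54). Of the inhibitory counterparts, Tigit, Pvrig and Ctla4 were higher in Cd8 T cells (2.96, 1.91 and 2.08) and in Cd4 T cells (2.00, 0.97 and 0.86), and Btla was lower in Cd8 T cells (-1.52). Of the SLAM and immunoglobulin list, 3 were higher and 2 lower in Cd8 T cells, with Cd244a at 3.06 and Slamf6 at -0.70, and 2 were higher in Cd4 T cells, with Sh2d1a at 1.14. Of 11 adaptors and kinases 1 was higher and 3 lower in each of these classes, and Prkcq, a kinase of the CD28 pathway, was lower in both (-0.69 and -0.46).

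TCR sequences showed in which clones the Tnfrsf9 UMIs of Cd8 T cells lay. A clonotype was called expanded at 3 or more cells, and expanded clonotypes held 1154, 2331, 222 and 560 Cd8 T cells in the Runx1::Runx1t1 and then the control pools. Tnfrsf9 was 68.1 and 298 CPM in expanded clonotypes of the Runx1::Runx1t1 pools and 22.3 and 12.5 in those of the control pools, against 8.79, 11.3, 7.91 and 11.2 in clonotypes seen once. It was above the level of clonotypes seen once in each pool, with a log2 fold change of 2.30 that was not called (SE 0.71, adjusted p = 0.0585 by edgeR) but was without Runx1::Runx1t1 replicate 2 (1.48, adjusted p = 0.0408) or control replicate 2 (2.96, adjusted p = 0.0221) and with library totals (2.59, adjusted p = 0.027). The margin was small in control replicate 2, where 4.11% of expanded and 5.94% of single cells had a Tnfrsf9 UMI, at medians of 5420.5 and 7237 UMIs. The largest clonotype was taken in each pool apart, and whether pools shared it was not examined here. It held 111 cells in Runx1::Runx1t1 replicate 1 and 1086 cells in replicate 2, with Tnfrsf9 levels of 436 and 433. In these clonotypes 77.5% and 79.0% of cells had a Tnfrsf9 UMI (Wilson 95% intervals 68.9 to 84.3% and 76.5 to 81.3%) and 80.2% and 82.1% a Pdcd1 UMI. The largest clonotypes of the control pools, of 13 and 24 cells, had no Tnfrsf9 UMI, and a count of 0 allowed up to 32.9 and 22.7 CPM there.

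The largest clonotype made up 1.66% of the Cd8 T cells of Runx1::Runx1t1 replicate 1 and held 31.6% of their 989 Tnfrsf9 UMIs (Wilson 95% interval 28.8 to 34.6%). In replicate 2 the largest clonotype of that pool made up 15.3% of cells and held 50.3% of 5488 UMIs (49.0 to 51.7%). All expanded clonotypes together held 48.2 and 79.0% of the Tnfrsf9 UMIs in these pools and 7.1 and 7.5% in the control pools. They made up 17.2 and 32.8% of the Cd8 T cells in the former and 3.74 and 8.33% in the latter. UMIs of 1 cell are not independent, and these intervals and limits cover counting error only. With the largest clonotype taken out, Tnfrsf9 in expanded clonotypes was 26.1 and 192 in the Runx1::Runx1t1 pools and 24.2 and 13.1 in the control pools.

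Of the other receptors, Icos was called with expansion and Cd27, Cd28 and Cd226 were not. Icos was 59.5, 56.3, 62.0 and 36.9 in expanded clonotypes against 37.2, 38.6, 27.2 and 21.9 in clonotypes seen once (1.39-fold, adjusted p = 0.0305 by edgeR), and was not called without Runx1::Runx1t1 replicate 1 (0.53, adjusted p = 0.112), control replicate 1 (0.36, adjusted p = 0.0645) or control replicate 2 (0.44, adjusted p = 0.0843). Cd226 was higher in expanded clonotypes in 3 pools (92.6, 122 and 119 against 58.1, 69.3 and 70.6) and lower in Runx1::Runx1t1 replicate 2 (47.6 against 61.1). Its difference was 0.18 (adjusted p = 0.581), and 0.47 without that replicate (adjusted p = 0.00414). The largest clonotype of that pool held 34.2 Cd226 CPM, and that of replicate 1 held 80.8. Cd28 was 69.7 and 129 in the same clonotypes, against 291 and 235 in all expanded clonotypes of these pools.

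Tnfsf8 was the member that fell with expansion, from 34.9, 36.4, 30.5 and 34.2 in clonotypes seen once to 12.4, 20.9, 5.79 and 16 in expanded ones. The groups of sums did not overlap, and the decrease was 2.92-fold (log2 fold change -1.55, SE 0.20, adjusted p = 0.00412 by edgeR), called under all 13 alternatives. The largest clonotype of Runx1::Runx1t1 replicate 2 stood out with 40.0 Tnfsf8 CPM on 255 UMIs, where the other expanded clonotypes of that pool held 5.99. Together 2 of the 8 genes were called with expansion, where 24.3% of 12635 genes were (11.9% higher and 12.5% lower), and library totals took the share of higher calls from 48.7 to 83.4%. Expanded clonotypes had more cells with Pdcd1 (32.3 against 2.53% in Runx1::Runx1t1 replicate 1), and all 5 naive T cell genes were lower in them, the part of which was not tested. Of the wider families, Tnfrsf1b (0.98), Fasl (1.84), Tigit (2.93) and Ctla4 (1.63) were higher and Lta (-1.64) lower in expanded clonotypes, within counts of 2 higher and 1 lower of 10 TNF receptors, 4 higher and 2 lower of 11 TNF ligands and 3 higher of 5 inhibitory counterparts.

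**Figure D3:**
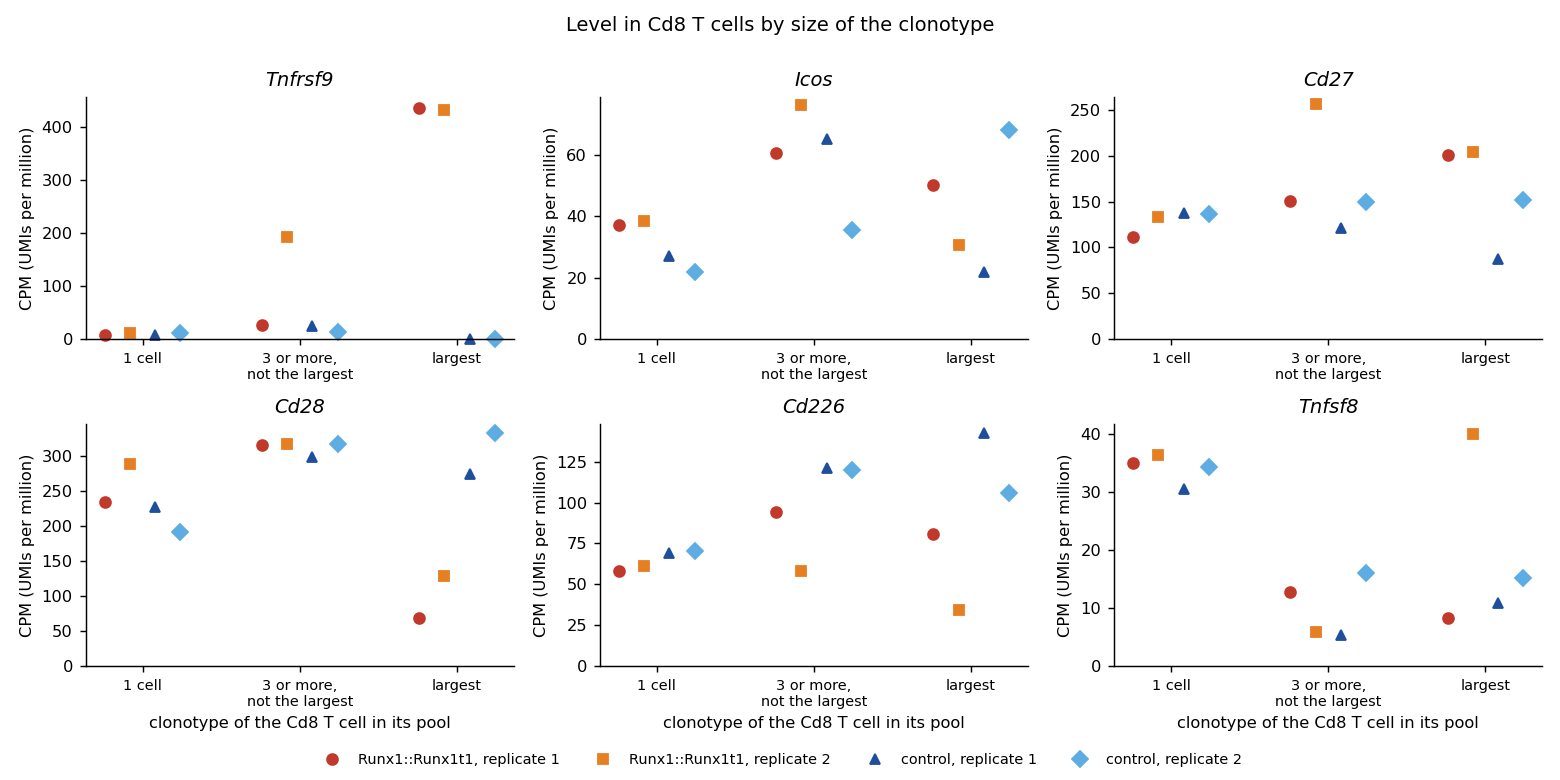
Level of 6 of the genes in CPM in Cd8 T cells of clonotypes seen once, of expanded clonotypes without the largest, and of the largest clonotype, with 1 point per pool. Tnfrsf9 in the largest clonotype is at 436 and 433 in the Runx1::Runx1t1 pools and at 0 in the control pools.

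Between the groups, a fit that left out 1 pool set 1 pool against 2, so its p-value rested on the spread of 1 group. Icos was called between groups in co-receptor-negative T cells and in Cd8 T cells without Pdcd1. In co-receptor-negative T cells it was 2.59-fold higher in the Runx1::Runx1t1 pools (99.5 and 109 against 42.2 and 34.3 CPM; log2 fold change 1.37, SE 0.10, adjusted p = 0.00285 by edgeR), called under all 14 alternatives over a range of 1.23 to 1.52. In Cd8 T cells without Pdcd1 it was 1.52-fold higher (38.7 and 41.3 against 28.3 and 23.9; 0.61, SE 0.09, adjusted p = 0.0234), and this was not called without Runx1::Runx1t1 replicate 1 (0.63, adjusted p = 0.0581) or replicate 2 (0.58, adjusted p = 0.0711). In that comparison 6 of 8 myeloid genes were lower in the Runx1::Runx1t1 pools, the summed myeloid markers of all Cd8 T cells being 23.9 and 28.0 CPM there against 212 and 88.6, and their part was not tested. In all Cd8 T cells Icos was at 0.65 (SE 0.10, adjusted p = 0.0736 by edgeR, and 7.24e-05 by DESeq2), in Cd4 T cells 0.35 (adjusted p = 0.196), and in Cd4 T cells without Pdcd1 0.47 (adjusted p = 0.0824). Without Runx1::Runx1t1 replicate 1 or 2 the Cd8 difference was 0.69 and 0.63. Without replicate 2 the difference in Cd4 T cells without Pdcd1 was 0.56.

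Co-receptor-negative T cells were the class with the most members called between groups, 3 of 8 where 3.32% of 12624 genes were called (2.27% higher and 1.05% lower). Besides Icos, Cd40lg was 1.53-fold higher in the Runx1::Runx1t1 pools (55.5 and 57.5 against 31.6 and 38.7; log2 fold change 0.61, SE 0.11, adjusted p = 0.0311 by edgeR), though not without control replicate 1 (0.47, adjusted p = 0.0819). Tnfsf11 was 1.83-fold higher (13.1 and 18.4 against 7.67 and 8.46, log2 fold change 0.88, SE 0.17, adjusted p = 0.0444 by edgeR). It was not called without control replicate 1 (0.80) or control replicate 2 (0.95). Nor was it called under the gate of 2 UMIs (1.01, adjusted p = 0.0632), which in this class only left out cells under 4000 UMIs. Cd28 was at 0.39 (adjusted p = 0.125 by edgeR) and Tnfsf8 at 0.36 (adjusted p = 0.145), and without Runx1::Runx1t1 replicate 1 they were at 0.44 and 0.52. The makeup of the class differed between groups as well. It was 18.5 and 12.8% of kept cells in the Runx1::Runx1t1 pools and 35.5 and 31.4% in the control pools, its natural killer markers were 507 and 398 against 792 and 754 CPM, and 6 of 8 myeloid genes were lower in the Runx1::Runx1t1 pools. Helper T cells with no captured Cd4 UMI would also fall into the class. The gated Cd4 T cells were 14.6 and 15.1% of kept cells in the Runx1::Runx1t1 pools and 7.40 and 6.39% in the control pools. The part of these differences in makeup was not tested. When only cells with paired TCR chains were counted, Icos, Cd40lg and Tnfsf11 were still called. Such cells include helper T cells, and the part of their makeup was not tested either.

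Tnfrsf9 had a higher level in the Runx1::Runx1t1 pools in Foxp3 T cells and in Cd8 T cells, and passed the test in neither. In Foxp3 T cells the levels were 385 and 370 against 235 and 152, which did not overlap (log2 fold change 0.99, SE 0.17, adjusted p = 0.0584 by edgeR). In that class 0 of the 8 genes and 0.117% of 9413 genes were called by edgeR (0.106% higher and 0.0106% lower), and 1046 genes had an unadjusted p under 0.05. DESeq2 called Tnfrsf9 (0.99, adjusted p = 0.000115), a call to which the share from edgeR does not apply. Leaving out any 1 pool gave Tnfrsf9 differences of 0.73 to 1.31. Tnfsf8 in Foxp3 T cells (77.4 and 68.4 against 24.8 and 46.1) was at 1.05 (SE 0.24, adjusted p = 0.12 by edgeR). It was at 1.16 without Runx1::Runx1t1 replicate 2, at 0.67 without control replicate 1 and at 1.6 without control replicate 2. Cd226 (-0.67, adjusted p = 0.225) and Cd40lg (-0.69, adjusted p = 0.252) were not called, and without control replicate 1 they were at -0.82 and -0.87.

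In Cd8 T cells Tnfrsf9 averaged 56.9 ± 54.9 CPM (SD, n = 2) among Runx1::Runx1t1 pools and 9.83 ± 1.39 (SD, n = 2) among control pools, a log2 fold change of 2.44 (SE 0.72, adjusted p = 0.152 by edgeR). None of the 8 genes was called by edgeR, where 0.113% of 13296 genes were (0.0677% higher and 0.0451% lower) and 2838 genes had an unadjusted p under 0.05. DESeq2 called 1 of the 8, Icos, and the share from edgeR does not apply to that count. The 18.1 of replicate 1 and the 95.8 of replicate 2 set the spread of Tnfrsf9. Without replicate 1 the difference was 3.18, and without replicate 2 it was 0.87. With no filter on low counts it was 2.45 (adjusted p = 0.0372). Among Cd8 T cells without Pdcd1 it was 0.89 (SE 0.39, adjusted p = 0.226 by edgeR), and 1.41 without replicate 1. There Icos was the 1 of 8 genes called, against 4.37% of all genes (2.74% higher and 1.63% lower). Whether the Pdcd1 difference in Cd8 T cells differed between groups was also tested, and 0 of 8 genes were called by edgeR (2.6% of all genes, 1.05% higher and 1.55% lower; 2162 at an unadjusted p under 0.05). Tnfrsf9 was at 0.85 (SE 0.22, adjusted p = 0.0642 by edgeR), at 0.75 without Runx1::Runx1t1 replicate 1 and at 0.98 without replicate 2. Cd27 was at 0.43 (adjusted p = 0.115), and at 0.51 without replicate 2. Cd226 was at -0.49 (adjusted p = 0.178) and Cd28 at -0.36 (adjusted p = 0.299), and without replicate 1 they were at -0.64 and -0.61.

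In Cd4 T cells none of the 8 genes was called between groups by edgeR, where 3.04% of 11267 genes were (1.85% higher and 1.18% lower) and 2259 genes had an unadjusted p under 0.05. Cd40lg was 144 and 120 in the Runx1::Runx1t1 pools against 174 and 176 in the control pools (log2 fold change -0.36, adjusted p = 0.132). Without Runx1::Runx1t1 replicate 1 it was at -0.51, Tnfsf8 at -0.51, Cd226 at -0.59 and Tnfrsf9 at 0.63. Tnfsf8 was at -0.61 without control replicate 2. In Cd4 T cells without Pdcd1 0 of 8 genes were called by edgeR (1.26% of all genes, 0.782% higher and 0.475% lower, with 1608 at an unadjusted p under 0.05). There Tnfsf11 was at 0.63 and Cd27 at -0.41 without Runx1::Runx1t1 replicate 2.

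**Figure D4:**
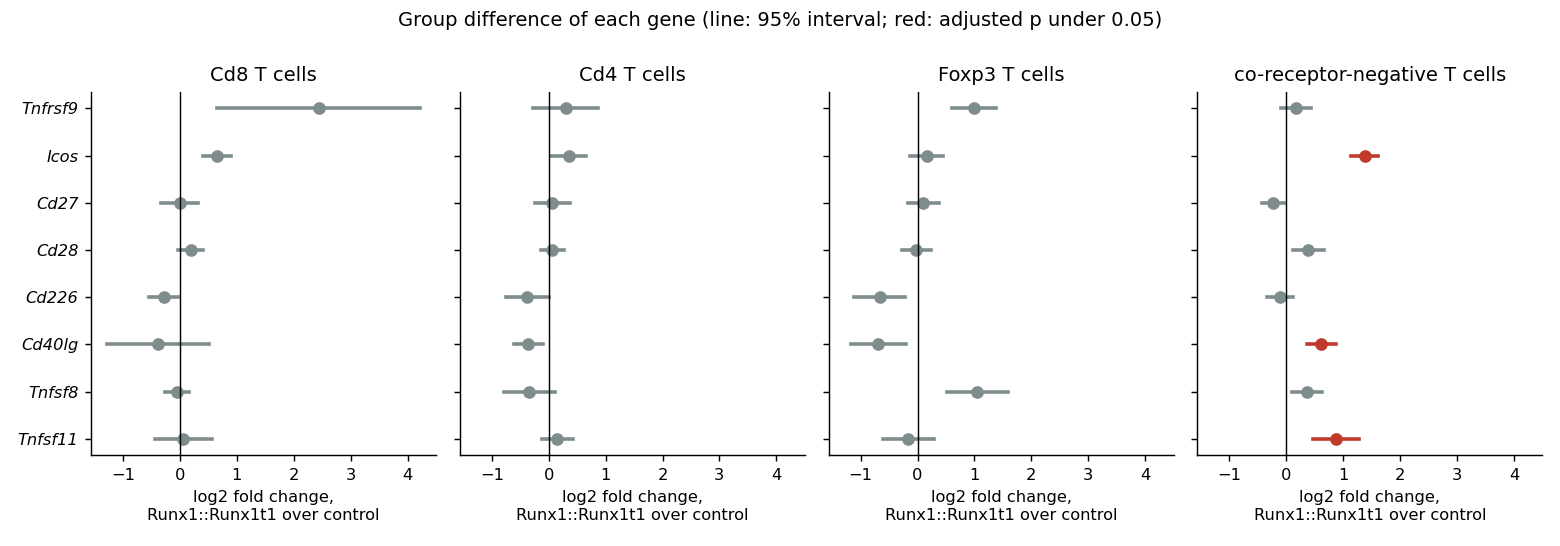
Log2 fold change of each gene in the Runx1::Runx1t1 group over the control group in the 4 classes, with lines for the 95% interval of the edgeR estimate and red for calls at an adjusted p under 0.05. Icos (1.37), Cd40lg (0.61) and Tnfsf11 (0.88) in co-receptor-negative T cells are the red points, and the widest interval is that of Tnfrsf9 in Cd8 T cells.

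Among the wider families Tnfrsf4, whose product OX40 is another activation-induced costimulatory receptor, was higher in the Runx1::Runx1t1 group in co-receptor-negative (log2 fold change 2.23, adjusted p = 0.00084 by edgeR), Cd8 (1.87, adjusted p = 0.045), Foxp3 (1.21, adjusted p = 0.0198) and Cd4 T cells (1.05). It was the only called one of 10 other TNF receptors in Cd8 T cells, of 9 in Foxp3 T cells, and 1 of 2 higher in co-receptor-negative T cells, with Tnfrsf25 (0.74). In Cd4 T cells Tnfrsf1b (0.60) was higher as well and Fas (-0.75) lower. The other TNF ligands had 0 of 11 called in Cd8 and 0 of 7 in Foxp3 T cells, Fasl higher in Cd4 T cells (0.54) and Tnfsf14 lower in co-receptor-negative T cells (-0.52). Ctla4 (2.04), Tigit (1.11), Slamf1 (1.5), Cd6 (0.86) and Cd5 (0.70) were higher and Crtam (-0.73) lower in co-receptor-negative T cells, and Tigit (1.37), Pvrig (0.93) and Sh2d1a (0.80) were higher and Slamf6 (-0.54) lower in Cd4 T cells. None of the 11 adaptors and kinases and of the tested genes of the partner-cell list was called between groups in any class by edgeR.

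Which ligands were seen in the same cells was counted after each cell had been thinned to 2000 UMIs, with classes gated at full depth. Among 5600 Cd4 T cells, Tnfsf8 and Tnfsf11 were found together in 200 cells where independence would give 75.7, a ratio of 2.64 that was 2.74, 3.35, 1.92 and 2.32 in the pools. Of the cells with Tnfsf11, 42.0% also had Tnfsf8. Cd40lg met Tnfsf11 in 158 cells against 105 (1.5) and Tnfsf8 in 271 against 197 (1.38), though control replicate 1 gave 0.93 for Cd40lg with Tnfsf11. Tnfrsf9 met Tnfsf8 in 56 cells against 44.6 (1.26) and Tnfsf11 in 27 against 23.8 (1.13). It met Cd40lg in 39 cells against 61.9 (0.63) and Cd226 in 12 against 30.4 (0.40), with every pool of the latter below 1, from 0.21 to 0.61, on 1 to 6 cells a pool. With Cd27 it met in 93 cells against 71.3 (1.30), and in Cd8 T cells in 439 against 325 (1.35).

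In 11585 co-receptor-negative T cells each pair of Icos, Cd40lg and Tnfsf11 occurred together more often than independence would give. Cd40lg and Tnfsf11 shared 46 cells against 16.4 (2.80), with ratios of 2.30, 2.08, 3.41 and 2.96 in the pools on 7 to 14 cells each. Icos and Tnfsf11 shared 57 cells against 22.8 (2.50) over all pools together. Mean levels of both were higher in the Runx1::Runx1t1 pools (Icos 104 against 38.2 CPM, Tnfsf11 15.7 against 8.07), and such a difference by itself raises a ratio over all pools. Icos and Cd40lg shared 195 cells against 89.0 (2.19), at 1.37 and 1.58 in the Runx1::Runx1t1 pools and at 3.27 and 2.50 in the control pools. In Cd4 T cells Icos and Cd40lg met in 288 cells against 268 (1.07). Cells of 1 pool are not replicates, and these ratios are descriptions with no test.

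**Figure D5:**
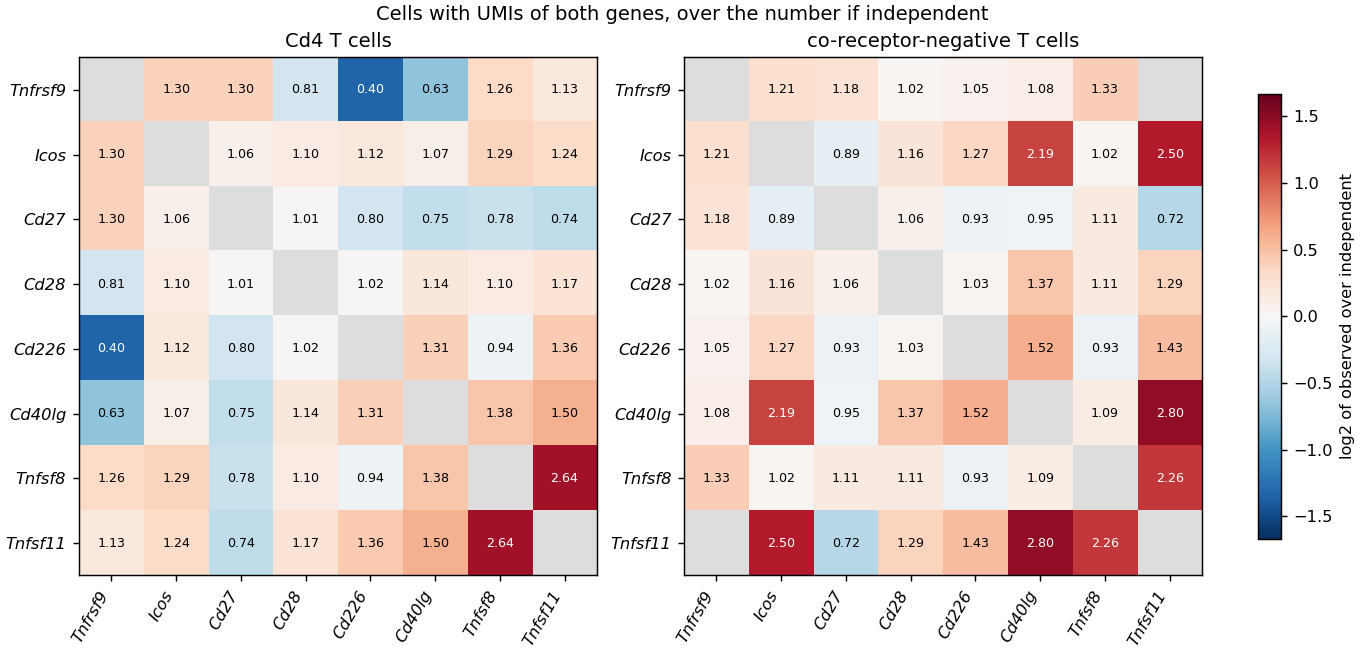
Ratio of the number of cells in which both genes of a pair had a UMI to the number given by independence, for pairs of the 8 genes in Cd4 and in co-receptor-negative T cells thinned to 2000 UMIs, with the ratio printed and its log2 as color. Gray squares are a gene with itself or pairs with fewer than 10 cells under independence, and the highest ratios shown are Cd40lg with Tnfsf11 (2.80) in co-receptor-negative T cells and Tnfsf8 with Tnfsf11 (2.64) in Cd4 T cells.

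Across 32 sums of cells (4 classes, with and without Pdcd1, in 4 pools), each gene's log2 level was compared with that of 9214 genes. The sums share pools, libraries and depth, so Pearson's r is given as a description. The 3 genes most like Tnfrsf9 were Mdh1 (0.929), Faim (0.928) and Tnfrsf1b (0.927), and those most like Icos were Tnfrsf4 (0.965), Trib1 (0.960) and Hif1a (0.958). Cd226 was most like Klrk1 (0.931), Evl (0.893) and Sept6 (0.892). Cd40lg was most like Itgb1 (0.866), Tnfsf11 (0.865) and Abhd8 (0.853), and Tnfsf11 was most like Zbtb7b (0.918), Tiam1 (0.898) and Nek7 (0.884), where Zbtb7b encodes a transcription factor of the Cd4 lineage. Cd27 was most like Ly75 (0.840), Cd28 like Fyb (0.834) and Tnfsf8 like Rnf19a (0.810). Among the 8 genes themselves, r was 0.87 for Cd40lg with Tnfsf11 and 0.76 for Tnfrsf9 with Cd27, and -0.76 for Cd27 with Cd226 and -0.72 for Tnfrsf9 with Cd226.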

How the data were processed

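Bone marrow T cells of 4 pools were measured with 5′ gene expression and TCR libraries. The authors deposited UMI counts per gene and cell, made per the labels with Cell Ranger 6.1.2 on GRCm38, and TCR contig tables with read and UMI counts. Cells with at least 200 genes and at most 15% mitochondrial counts were kept in scanpy 1.11.5. Scrublet (expected rate 0.05) set a usable threshold in 1 library, and the highest 5% of scores were removed in the others. Classes were gated on 1 UMI. The alternative gate asked for 2 UMIs of Cd4, or of Cd8a and Cd8b1 together. For co-receptor-negative T cells it changed only the depth, to at least 4000 UMIs per cell. Counts were summed per pool and class (sums under 20 cells left out) and tested with edgeR 4.0.16 (quasi-likelihood, TMM, filterByExpr, Benjamini-Hochberg threshold 0.05), with the pool as a block except between groups, after tests on simulated data. DESeq2 1.42.0, other gates, scalings and left-out pools were alternatives. The alternative with 1 cell per clonotype drew only on cells with paired TCR chains, which were 52.6% of co-receptor-negative and 79.5% of Cd8 T cells. Levels are CPM (counts scaled to the sum of all UMIs), while fold changes carry TMM factors.

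The 8 genes are named in every comparison, other genes only from the lists of TNF receptors, TNF ligands, immunoglobulin and SLAM family members, inhibitory counterparts, adaptors and kinases and partner-cell genes, by lowest adjusted p (at most 4 each), and the 3 most alike by correlation. The members and lists were chosen with earlier results of these data known. Marker lists of T cell, natural killer, gamma-delta, regulatory, naive, myeloid, erythroid, progenitor and B cells were summed per class, and B cell markers reached at most 37.6 CPM in the 4 classes, erythroid markers 36.5 to 56.0 and progenitor markers 8.45 to 63.1 in co-receptor-negative T cells, and T cell markers 2947 to 3345 there.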

Additional observations from a re-analysis of the deposited data

Results flagged for a closer look

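The test of whether the difference between cells with and without Pdcd1 differs between Cd4 and Cd8 T cells passed for Tnfrsf9 (log2 difference of the differences -1.66, adjusted p = 0.0252 by edgeR) and for Cd226 (-0.74, adjusted p = 0.0347). Tnfrsf9 was not called without Runx1::Runx1t1 replicate 1 (adjusted p = 0.262) or replicate 2 (0.177), nor Cd226 without these (0.357 and 0.121) or control replicate 1 (0.0733), and neither was called after thinning, with a gate of 2 UMIs or without the pool as a block. Tnfrsf9 was higher with Pdcd1 in 4 of 4 pools in either class, and Cd226 was lower with Pdcd1 in 4 of 4 pools of Cd4 T cells and in 2 of 4 of Cd8 T cells.

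For 3 genes the ratio of cells with to cells without Pdcd1 pointed one way in both Runx1::Runx1t1 pools and the other way in both control pools. Cd226 in Cd8 T cells had log2 ratios of -0.16 and -0.50 against 0.01 and 0.26, a difference of the group means of -0.47. The test of this interaction gave -0.49 (adjusted p = 0.178 by edgeR) and did not pass. Cd40lg in Foxp3 T cells had levels of 16.1 and 14.9 CPM with and 20.3 and 21.6 without Pdcd1 in the Runx1::Runx1t1 pools, against 44.3 and 47.7 with and 22.3 and 34.1 without in the control pools, a difference of -1.18 that rests on 10 to 14 UMIs in cells with Pdcd1 in each pool. Tnfsf11 in Cd4 T cells had log2 ratios of -0.74 and -0.29 against 1.09 and 0.82, a difference of -1.47. The differences of Cd40lg and Tnfsf11 were not tested.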

How the results depend on the processing

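Over the 8 genes and all comparisons, 1750 of 2055 alternative values kept their direction and their side of the threshold. In the same direction, 96 passed the threshold anew and 89 no longer passed it. A further 117 changed direction with neither value called, and 3 reversed, which is a change of direction with a call. The reversals were Tnfrsf9 in co-receptor-negative over Cd8 T cells, at 1.11 with 1 cell per clonotype and 0.76 without Runx1::Runx1t1 replicate 2 (-0.43 to 0.76 over the pools left out), and Cd27 in co-receptor-negative over Cd4 T cells, at 0.23 with 1 cell per clonotype. The setting with 1 cell per clonotype also left out cells without paired TCR chains, and the cause of the reversals was not tested. Alternatives with library totals, paired chains only and without the largest Cd8 clonotype were chosen after seeing the data.

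The shares of all genes given above belong to edgeR with TMM and the gate of 1 UMI, not to the alternatives. The counts below, also those by block and by left-out pool, therefore do not separate the 8 genes from a general change in calls. Counts of the 8 genes called that changed by more than 1.5 times were as follows. With cells thinned to 2000 UMIs, which enlarges the co-receptor-negative class through lost UMIs, the count was 5 in place of 8 for Foxp3 over Cd4 T cells, 4 in place of 2 for Pdcd1 in co-receptor-negative T cells, 0 in place of 2 for the Cd4 minus Cd8 difference of the Pdcd1 effect, and between groups 0 in place of 1 in Cd8 T cells without Pdcd1, 2 in place of 0 in Cd4 and 5 in place of 3 in co-receptor-negative T cells. A gate of 2 UMIs gave 2 in place of 4 for Pdcd1 in Cd8 T cells, 0 for the Cd4 minus Cd8 difference and 1 for the difference between groups. With 1 cell per clonotype the count was 1 for Pdcd1 in Foxp3 T cells, the Cd4 minus Cd8 difference, and groups in Cd8 and Cd4 T cells, and 2 in Cd4 T cells without Pdcd1. Without a filter on low counts the count was 2 for groups in Cd8 T cells, 3 in Cd8 T cells without Pdcd1 and 2 for the group difference of the Pdcd1 effect. DESeq2 gave 1 for the Cd4 minus Cd8 difference and for groups in Cd8 and Foxp3 T cells. With doublets kept it was 1 for the Cd4 minus Cd8 difference and for groups in Foxp3 T cells, with paired chains 1 for Pdcd1 in co-receptor-negative T cells, and without the largest clonotype 1 for groups in Cd8 T cells.

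The labels link pools of the same replicate number by that number only, while the study's methods describe the mice of an experiment as littermates matched for sex. Whether same-numbered pools shared a litter or a run was not stated. The correlation of their deviations was 0.263, 0.145, 0.135 and 0.308 in Cd8, Cd4, Foxp3 and co-receptor-negative T cells over 2 pairs. With the replicate block the count between groups was 1 in Cd8 T cells, 3 in Cd8 T cells without Pdcd1, 1 in Cd4 T cells without Pdcd1, 1 in Foxp3 T cells and 5 in co-receptor-negative T cells. Without the pool as a block, the other way round, it was 2 for co-receptor-negative over Cd8 T cells, 1 for Pdcd1 in Cd8 T cells, 1 in co-receptor-negative T cells and 0 for the Cd4 minus Cd8 difference, and calls were also lost for Cd226 in Cd4 over Cd8 (adjusted p = 0.231), Cd28 in Foxp3 over Cd4 (0.0899), Icos in co-receptor-negative over Cd4 (0.0505) and Cd28 in co-receptor-negative over Foxp3 T cells (0.0536).

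Leaving out 1 pool at a time, where a lone pool was assumed to vary like the other group, gave 5 to 6 for Cd4 over Cd8 T cells, 6 to 8 for Foxp3 over Cd4 and over Cd8, 2 to 5 for co-receptor-negative over Cd8, 6 to 6 over Cd4 and 6 to 7 over Foxp3. It gave 1 to 4 for Pdcd1 in Cd8, 2 to 4 in Cd4, 0 to 0 in Foxp3 and 1 to 2 in co-receptor-negative T cells, 0 to 2 for the Cd4 minus Cd8 difference and 0 to 3 for the group difference of the Pdcd1 effect. Between groups it gave 0 to 2 in Cd8, 0 to 1 in Cd8 without Pdcd1, 0 to 4 in Cd4, 0 to 3 in Cd4 without Pdcd1, 1 to 4 in Foxp3 and 1 to 5 in co-receptor-negative T cells, and 1 to 4 with expansion. Cd40lg and Tnfsf11 had a UMI in 1.81 and 1.12% of Cd8 T cells, so their values there rest on few UMIs.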
